A study of Mus musculus with 48 samples.

Results

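The galectin genes Lgals1 and Lgals3, the S100 genes S100a4, S100a6, S100a10 and S100a11, the annexin genes Anxa1, Anxa2 and Anxa5 and the scaffold gene Ahnak were followed across all libraries of the series. They were chosen by symbol, are 10 of the 53345 genes in the matrix, and all 10 passed the filter on low counts in both cell types. RNA was sequenced from splenic Tregs of 32 female C57BL/6 mice aged 8 to 12 weeks, and 16 of these mice also gave Tcons, 48 libraries in all. Each mouse received PBS or 25 µg of a human IL-2 fused to an Fc, which was WT IL-2, the mutein H16R or the 3x mutein (D20A, V91K and M104V), and cells were taken on day 4. Every mouse also received 2 doses of 500 µg of antibody, either an isotype control or an antibody that blocks MHC II, on which antigen peptides are shown to CD4 T cells. This gave 8 groups of 4 Treg libraries and 8 groups of 2 Tcon libraries. Tregs were the cells held by CD25 beads and Tcons the cells that flowed through, so the Treg fraction was selected on the IL-2 receptor alpha chain and not on Foxp3. A pair of the isotype WT IL-2 Treg libraries carry the same mouse number in their labels (replicates 3 and 4 here), and their counts differed by more than sampling noise. That cannot tell 2 mice from 2 preparations of 1 mouse, and if the number is right, n is 3 and not 4 in that group.

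Galectins are lectins that bind beta-galactosides. Galectin-1, made by Lgals1, and galectin-3, made by Lgals3, leave cells without a signal peptide and bind glycans on T cell surface proteins such as CD45, CD43 and CD7, and galectin-1 has been tied to suppression by Tregs. S100 proteins are small EF-hand calcium sensors. S100a4 binds the heavy chain of nonmuscle myosin IIA, S100a10 no longer responds to calcium and forms a complex with annexin A2, and S100a11 binds annexin A1. Annexins bind membrane phospholipids when calcium is present: annexin A1 signals through formyl peptide receptors, and annexin A5 binds exposed phosphatidylserine. Ahnak is a giant scaffold protein that the S100a10 and annexin A2 complex binds at the membrane.

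In GRCm38 the 4 S100 genes lie in the S100 cluster of chromosome 3, S100a4 at chr3:90603771-90606045, S100a6 at chr3:90612882-90624181, S100a11 at chr3:93520488-93526287 and S100a10 at chr3:93555080-93564643, all on the plus strand. Anxa5 is on the same chromosome, outside the cluster, at chr3:36448923-36475894 on the minus strand. Lgals3 is at chr14:47367751-47386160, Lgals1 at chr15:78926725-78930465, Anxa2 at chr9:69453620-69491795 and Ahnak at chr19:8989284-9076914, all on the plus strand, and Anxa1 is at chr19:20373428-20390944 on the minus strand. Promoter windows of 250 bases before and 50 bases after the RefSeq start were found for 8 of the 10 genes in the GRCm38.p6 table. They were searched on both strands for exact matches to the STAT5 site TTCNNNGAA, the AP-1 site TGANTCA and the CACCC-type KLF site CCNCNCCC. The STAT5 letters occurred in 0 of the 8 windows and in 8.3% of the 32851 windows of the table. The AP-1 letters occurred in 2 of 8 and in 7.8%, and the KLF letters in 6 of 8 and in 49.5%. The windows of 4 genes that rose together after IL-2 and of Anxa5, which changed little, are printed 5′ to 3′ on the strand of the gene, with matches in capitals. That of S100a11 holds 2 AP-1 matches, 136 and 38 bases before the start, and that of Anxa2 holds 1, 95 bases before it. The other capitals are KLF matches. The windows are chr3:90612644-90612943 for S100a6, chr3:93520246-93520545 for S100a11, chr9:69453433-69453732 for Anxa2 and chr14:47373610-47373909 for Lgals3, whose RefSeq start lies inside the GENCODE gene. For Anxa5 the window is chr3:36475838-36476137 on the minus strand.
S100a6: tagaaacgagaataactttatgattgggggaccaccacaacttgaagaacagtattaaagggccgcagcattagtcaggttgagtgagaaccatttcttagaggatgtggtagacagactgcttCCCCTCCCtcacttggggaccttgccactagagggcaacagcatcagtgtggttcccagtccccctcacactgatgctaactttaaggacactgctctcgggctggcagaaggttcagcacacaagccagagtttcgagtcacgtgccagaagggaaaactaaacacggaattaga
S100a11: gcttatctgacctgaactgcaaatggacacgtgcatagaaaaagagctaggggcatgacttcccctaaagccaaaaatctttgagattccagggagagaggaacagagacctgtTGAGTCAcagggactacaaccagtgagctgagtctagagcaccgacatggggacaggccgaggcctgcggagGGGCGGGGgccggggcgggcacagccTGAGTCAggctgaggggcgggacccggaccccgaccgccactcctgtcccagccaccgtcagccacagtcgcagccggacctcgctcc
Anxa2: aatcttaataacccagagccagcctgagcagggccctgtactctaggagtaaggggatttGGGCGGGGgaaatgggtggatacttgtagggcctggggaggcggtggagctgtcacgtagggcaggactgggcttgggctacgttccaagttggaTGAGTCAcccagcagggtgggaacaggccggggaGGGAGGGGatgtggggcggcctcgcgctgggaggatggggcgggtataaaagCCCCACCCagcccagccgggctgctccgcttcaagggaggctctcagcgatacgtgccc
Lgals3: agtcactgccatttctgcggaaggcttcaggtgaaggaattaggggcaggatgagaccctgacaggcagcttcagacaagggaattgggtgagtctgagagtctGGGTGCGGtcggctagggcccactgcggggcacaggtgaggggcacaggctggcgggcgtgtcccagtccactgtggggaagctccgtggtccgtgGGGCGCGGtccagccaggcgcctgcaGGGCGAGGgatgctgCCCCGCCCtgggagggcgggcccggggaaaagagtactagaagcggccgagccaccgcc
Anxa5: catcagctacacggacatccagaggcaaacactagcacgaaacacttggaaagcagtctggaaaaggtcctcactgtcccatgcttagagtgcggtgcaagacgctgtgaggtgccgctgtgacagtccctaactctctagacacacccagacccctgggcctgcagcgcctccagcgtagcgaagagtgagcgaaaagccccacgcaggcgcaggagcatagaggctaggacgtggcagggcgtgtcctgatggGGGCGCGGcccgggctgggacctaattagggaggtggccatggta

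Library totals were from 18.28 to 51.24 M expected counts in Tregs, lowest in the isotype PBS group, and from 31.31 to 51.95 M in Tcons. The summed CPM (expected counts over the library total in M) of Foxp3, Il2ra and Ikzf2 was from 1615 to 2780.5 in Treg libraries and from 196 to 758 in Tcon libraries, and isotype WT IL-2 Tcon replicate 2 held the 758. Tcon libraries held more myeloid RNA than Treg libraries: 8 monocyte, macrophage and neutrophil markers, all of them in the matrix, summed to group medians from 106 to 933 CPM in Tcons and from 29.1 to 239 CPM in Tregs. MHC II block WT IL-2 Treg replicate 1 stood apart with a myeloid sum of 789 CPM, and isotype PBS Treg replicate 1 with a B cell marker sum of 552 CPM. In bulk RNA a change in the share of cells that express a gene and a change in RNA per cell cannot be told apart.

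Per transcript length, S100a10, S100a11, S100a4 and Lgals1 were the most abundant members in Tregs at rest. In isotype PBS Tregs, S100a10 averaged 362 ± 33.7 FPKM (SD, n = 4), S100a11 204 ± 30.6, S100a4 173 ± 39.8 and Lgals1 156 ± 25.2 FPKM. Ahnak, S100a6, Anxa5 and Anxa2 followed with 78.8 ± 25.1, 65.9 ± 17.9, 38.7 ± 3.4 and 36.9 ± 5.8 FPKM. Lgals3 with 10.0 ± 2.5 and Anxa1 with 9.20 ± 1.2 FPKM were the lowest. The ranges over 4 mice of neighbours in this order overlapped except between S100a10 and S100a11, between Lgals1 and Ahnak, and between Anxa2 and Lgals3. After the 3x mutein with MHC II block the order was different, with S100a4 at 1254 ± 119, Lgals1 at 1184 ± 195 and S100a10 at 1105 ± 115 FPKM, the ranges of S100a4 and Lgals1 and of Lgals1 and S100a10 overlapping. S100a6 followed with 814 ± 99.0, S100a11 with 581 ± 51.6, Anxa2 with 277 ± 50.6 and Lgals3 with 156 ± 34.1 FPKM, each range apart from the next. Ahnak at 83.0 ± 10.1, Anxa5 at 46.5 ± 3.5 and Anxa1 at 12.0 ± 1.3 FPKM then took the last 3 places, again with ranges apart.

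**Figure D1:**
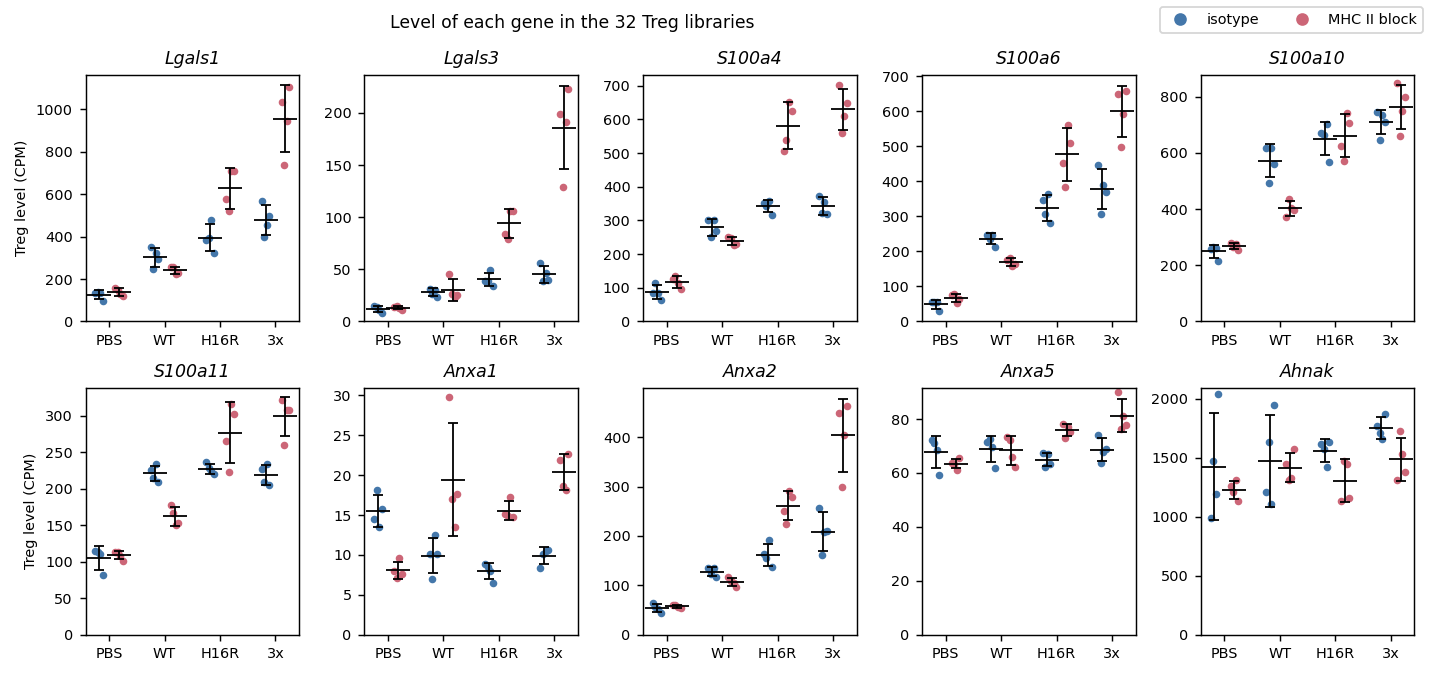
CPM of each of the 10 members in the 32 Treg libraries (vertical axis, linear from 0) by treatment (horizontal axis), 1 point per library with the group mean and SD as bars, isotype in blue and MHC II block in red. For Lgals1, Lgals3, S100a4, S100a6 and Anxa2 the MHC II block 3x group sits highest, all 4 of its Lgals3 libraries at 129 CPM or more against at most 56.1 CPM with isotype, while each treated Ahnak group overlaps the PBS group of its arm.

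The first question was what each IL-2 molecule did to these genes in Tregs relative to PBS under the same antibody. Lgals1, Lgals3, S100a4, S100a6, S100a10, S100a11 and Anxa2 rose after every molecule in both arms, and in all 6 comparisons the 4 treated libraries of each of these 7 genes lay above the 4 PBS libraries. The share of all genes whose groups stood apart in this way was not counted, so this separation describes the members only. Anxa1 went down in the isotype arm and up in the MHC II block arm. Anxa5 and Ahnak had the smallest differences. With isotype, 8, 8 and 9 of the 10 members passed the threshold after WT IL-2, H16R and 3x (edgeR's quasi-likelihood test, Benjamini-Hochberg adjusted p under 0.1), against 52.2%, 64.2% and 63.6% of the 12392 genes tested. The median log2 fold change of the members was 1.24, 1.54 and 1.77 (log2 scale), beside -0.01 over all genes in each comparison. With MHC II block, 9, 9 and 10 members passed, all higher, against 35.6%, 66.5% and 73.0% of genes. The medians there were 0.90, 1.82 and 2.00, beside 0.02, -0.02 and -0.04 over all genes. WT IL-2, H16R and 3x are compared with the same PBS mice within an arm, so their 3 values for a gene are not independent.

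Lgals1 had its largest rise after 3x with MHC II block. In isotype Tregs Lgals1 was at 134, 140.0, 135 and 95.9 CPM in the 4 PBS mice and at 349.9, 246, 321 and 294 CPM after WT IL-2. It was at 385, 393, 478 and 322 CPM after H16R and at 568, 399.5, 453 and 498 CPM after 3x. All 12 treated libraries lay above all 4 PBS libraries, and PBS replicate 4 was the lowest. In block Tregs Lgals1 was at 156, 149, 127 and 119 CPM after PBS and at 255, 258, 226 and 230.2 CPM after WT IL-2. After H16R it was at 576, 519.9, 711 and 708 CPM and after 3x at 1033, 739.5, 947 and 1104 CPM. The 4 groups of the block arm did not overlap and stood in the order PBS, WT IL-2, H16R, 3x. The log2 fold changes of Lgals1 over PBS were 1.29 ± 0.15, 1.71 ± 0.15 and 1.98 ± 0.15 (SE) with isotype (edgeR adjusted p = 5.25e-08, 1.39e-10 and 1.26e-11), and 0.86 ± 0.14, 2.25 ± 0.15 and 2.83 ± 0.15 with MHC II block (edgeR adjusted p = 6.9e-05, 9.25e-13 and 4.94e-15), for WT IL-2, H16R and 3x in turn. These are folds of 2.45, 3.27 and 3.94 with isotype and of 1.81, 4.74 and 7.10 with MHC II block.

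Lgals3 was low at rest and had the largest fold of any member. Its isotype values were 14.6, 13.7, 11.1 and 7.88 CPM after PBS, 31.4, 26.5, 30.4 and 23.1 CPM after WT IL-2, 39.0, 39.0, 49.2 and 34.1 CPM after H16R and 56.1, 38.6, 46.7 and 39.3 CPM after 3x. In the block arm Lgals3 was at 14.2, 15.1, 13.1 and 11.0 CPM after PBS and 45.6, 26.7, 23.1 and 25.5 CPM after WT IL-2. H16R with MHC II block gave 84.3, 79.6, 106 and 106 CPM, and 3x gave 199, 129, 192 and 223 CPM. The libraries of H16R and of 3x with MHC II block lay above every other Treg library, and those of 3x lay above those of H16R. The highest of the block WT IL-2 values, 45.6 CPM, was replicate 1, the library with the myeloid sum of 789 CPM. The log2 fold changes of Lgals3 were 1.25 ± 0.21, 1.82 ± 0.21 and 1.97 ± 0.21 with isotype (edgeR adjusted p = 2.88e-05, 3.66e-08 and 9.65e-09) and 1.22 ± 0.21, 2.88 ± 0.21 and 3.83 ± 0.21 with MHC II block (edgeR adjusted p = 7.41e-05, 4.13e-12 and 7.46e-15). The last of these is a 14.3-fold rise, the 38th largest log2 fold change among the 12392 genes of that comparison. Myeloid cells also express Lgals3, and their markers summed to 84.4 to 120.3 CPM in block 3x Tregs and to 32.2 to 69.5 CPM in block PBS Tregs. Of these 8 markers, Itgam and Ly6c2 averaged 39.0 and 51.0 CPM in block 3x Tregs beside 3.43 and 30.0 CPM in block PBS Tregs. Both passed the test at log2 fold changes of 3.53 and 0.79 (edgeR adjusted p = 1.11e-08 and 0.00953). The other 6 averaged under 7 CPM in both groups; 5 of them were tested and none passed, Lyz2 and Csf1r being at 0.18 and 0.20 (edgeR adjusted p = 0.847 and 0.865). The part of myeloid RNA in the Treg Lgals3 values was not tested.

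Of the S100 genes, S100a6 had the largest rise with isotype. S100a6, also called calcyclin, was at 54.9, 55.6, 55.0 and 28.8 CPM in isotype PBS Tregs and at 248, 237, 248 and 213 CPM after WT IL-2. It was at 347, 307, 364 and 281 CPM after H16R and at 447, 307, 389.9 and 369.6 CPM after 3x. Every treated library lay above every PBS library, and PBS replicate 4, at 28.8 CPM, was far below the other 3. In the block arm S100a6 was at 75.6, 77.9, 53.1 and 64.5 CPM after PBS and at 176, 181, 159.8 and 163 CPM after WT IL-2. H16R gave 453, 383, 562 and 509.6 CPM and 3x gave 649, 499.8, 593 and 659 CPM. Here WT IL-2 stood between PBS and the muteins without overlap, and the muteins overlapped each other. S100a6 log2 fold changes were 2.31 ± 0.16, 2.80 ± 0.16 and 3.01 ± 0.17 with isotype (edgeR adjusted p = 9.18e-12, 9.64e-14 and 4.26e-14), folds of 4.95, 6.96 and 8.05 and ranks of 29, 32 and 22 among 12392 genes. They were 1.38 ± 0.16, 2.88 ± 0.16 and 3.18 ± 0.16 with MHC II block (edgeR adjusted p = 2.72e-07, 3.5e-14 and 2.2e-15).

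S100a4, the myosin-binding member, followed S100a6. Its values with isotype were 85.6, 113, 84.9 and 64.1 CPM after PBS, 302, 251, 301 and 268 CPM after WT IL-2, 352, 343, 358 and 317 CPM after H16R and 372, 323, 356 and 320.4 CPM after 3x. Block values were 125, 134, 114 and 95.8 CPM after PBS, 250.1, 249, 228 and 231 CPM after WT IL-2, 507, 539.9, 653 and 625 CPM after H16R and 702, 560.3, 609.5 and 649 CPM after 3x. The H16R and 3x groups overlapped in both arms, and with MHC II block both lay above all isotype libraries. S100a4 log2 fold changes were 1.72 ± 0.12, 2.04 ± 0.12 and 2.04 ± 0.12 with isotype (edgeR adjusted p = 6.86e-12, 9.64e-14 and 1.6e-13) and 1.08 ± 0.12, 2.37 ± 0.12 and 2.46 ± 0.12 with MHC II block (edgeR adjusted p = 1.36e-07, 3.89e-15 and 7.57e-16).

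S100a10, the annexin A2 partner, was the most abundant S100 gene per length at rest and rose less. Its group means with isotype were 250.2 ± 23.4, 572 ± 59.4, 651 ± 58.9 and 710.0 ± 44.1 CPM (SD, n = 4) after PBS, WT IL-2, H16R and 3x. In the block arm they were 269.6 ± 10.5, 402 ± 26.9, 662 ± 77.1 and 764 ± 79.8 CPM. Block WT IL-2 libraries, at 372 to 437 CPM, lay above block PBS and below every other treated Treg library. The log2 fold changes of S100a10 were 1.23 ± 0.09, 1.45 ± 0.09 and 1.56 ± 0.09 with isotype (edgeR adjusted p = 1.83e-11, 2.91e-13 and 1.15e-13) and 0.62 ± 0.09, 1.35 ± 0.09 and 1.54 ± 0.09 with MHC II block (edgeR adjusted p = 8.23e-06, 9.25e-13 and 2.66e-14). S100a11, the annexin A1 partner, reached nearly the same level after each molecule with isotype, 221 ± 10.8, 228 ± 7.08 and 219 ± 14.0 CPM from 105 ± 15.8 CPM after PBS. In the block arm it went from 109 ± 5.71 CPM to 162 ± 13.0, 277 ± 41.9 and 299.6 ± 26.6 CPM, where WT IL-2 stood below both muteins without overlap. S100a11 log2 fold changes were 1.10 ± 0.10, 1.17 ± 0.10 and 1.11 ± 0.10 with isotype (edgeR adjusted p = 4.93e-10, 5.02e-11 and 1.98e-10) and 0.62 ± 0.10, 1.40 ± 0.10 and 1.49 ± 0.10 with MHC II block (edgeR adjusted p = 2.1e-05, 1.54e-12 and 1.66e-13).

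Among the annexins, Anxa2 behaved like the galectins. Anxa2 was at 64.3, 55.3, 52.5 and 43.8 CPM in isotype PBS Tregs, at 136, 124, 134 and 116 CPM after WT IL-2, at 163, 155, 191 and 136 CPM after H16R and at 256, 160.5, 208 and 211 CPM after 3x. Block values of Anxa2 were 60.7, 60.4, 56.4 and 54.1 CPM after PBS and 117, 109, 105 and 96.5 CPM after WT IL-2, then 251, 224, 292 and 278 CPM after H16R and 449, 299.6, 405 and 463 CPM after 3x. The 4 block groups did not overlap, and in the isotype arm H16R and 3x overlapped. Anxa2 log2 fold changes were 1.26 ± 0.14, 1.64 ± 0.14 and 2.00 ± 0.14 with isotype (edgeR adjusted p = 2.16e-08, 6.98e-11 and 2.75e-12) and 0.93 ± 0.13, 2.23 ± 0.14 and 2.84 ± 0.14 with MHC II block (edgeR adjusted p = 1.03e-05, 1.86e-13 and 9.01e-16).

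Anxa1 was the member whose direction depended on the arm. Isotype PBS Tregs held 14.6, 18.2, 13.5 and 15.8 CPM, WT IL-2 10.1, 7.05, 12.5 and 10.1 CPM, H16R 8.84, 8.51, 8.01 and 6.55 CPM and 3x 8.34, 10.2, 10.6 and 10.7 CPM. All 12 treated isotype libraries lay below the 4 PBS libraries. Block PBS Tregs held 8.04, 7.12, 9.61 and 7.63 CPM, WT IL-2 29.8, 17.0, 13.4 and 17.6 CPM, H16R 15.2, 14.8, 17.3 and 14.8 CPM and 3x 21.9, 18.6, 18.2 and 22.7 CPM. There all 12 treated libraries lay above the 4 PBS libraries, and the PBS libraries themselves lay below those of the isotype arm. Anxa1 log2 fold changes were -0.60 ± 0.17, -0.89 ± 0.18 and -0.58 ± 0.17 with isotype (edgeR adjusted p = 0.00615, 0.00011 and 0.00587) and 1.302 ± 0.18, 0.99 ± 0.18 and 1.36 ± 0.18 with MHC II block (edgeR adjusted p = 4.53e-06, 2.45e-05 and 1.14e-07). Myeloid cells express Anxa1, and the marker sums of other cell types differed between the same groups. The myeloid group medians were 56.4, 50.5, 36.1 and 29.1 CPM with isotype and 45.0, 239, 112 and 106 CPM with MHC II block, for PBS, WT IL-2, H16R and 3x. Dendritic cell markers (5 genes) had medians of 30.5, 13.5, 7.14 and 7.41 CPM with isotype and of 22.5, 42.6, 24.2 and 27.7 CPM with MHC II block. NK cell markers (4 genes) were lower after each molecule with isotype and, with MHC II block, higher than PBS after WT IL-2 and lower after the muteins, with medians of 38.7, 18.2, 11.5 and 13.2 CPM and of 30.8, 39.0, 26.5 and 24.2 CPM. Plasma cell markers (3 genes) had medians of 1879, 774, 399 and 189 CPM and of 1666, 2558, 1034 and 1014 CPM, and B cell markers (5 genes) of 122, 51.1, 27.1 and 27.5 CPM and of 70.6, 96.8, 57.4 and 53.1 CPM, in the same order. The part of these cell types in the Anxa1 values was not tested. Without the 2 Treg libraries that stood apart, the Anxa1 log2 fold changes were -0.63, -0.92 and -0.61 with isotype, and 1.02, 0.99 and 1.36 with MHC II block.

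Anxa5 was the flattest member in the isotype arm. Its 16 isotype Treg libraries lay between 59.1 and 74.1 CPM, with log2 fold changes of 0.06 ± 0.07, 0.01 ± 0.07 and 0.07 ± 0.07 (edgeR adjusted p = 0.507, 0.945 and 0.34). Under blockade Anxa5 went from 61.3 to 65.4 CPM after PBS to 62.1 to 73.4 after WT IL-2, 73.1 to 78.1 after H16R and 76.2 to 90.0 CPM after 3x. The mutein groups lay above PBS, and WT IL-2 overlapped it. Anxa5 log2 fold changes there were 0.15 ± 0.07, 0.32 ± 0.07 and 0.39 ± 0.07 (edgeR adjusted p = 0.0786, 0.000162 and 6.58e-06), and that of WT IL-2 missed the threshold when any of 8 single libraries was left out, at 0.12 to 0.16. Ahnak varied widely between mice of 1 group. Isotype PBS Tregs held 989, 1476, 1194 and 2039 CPM and isotype 3x Tregs 1769, 1708, 1663 and 1870.2 CPM, and block PBS Tregs held 1258, 1206, 1316 and 1132 CPM beside 1313, 1724, 1532 and 1376 CPM after 3x. These groups overlapped in both arms. Ahnak log2 fold changes were 0.09 ± 0.15, 0.20 ± 0.15 and 0.36 ± 0.15 with isotype (edgeR adjusted p = 0.679, 0.268 and 0.0474) and 0.25 ± 0.15, 0.14 ± 0.15 and 0.31 ± 0.15 with MHC II block (edgeR adjusted p = 0.228, 0.428 and 0.0768). The isotype 3x call rested on single libraries: without isotype PBS replicate 1 it was 0.22 (edgeR adjusted p = 0.215) and without replicate 3 it was 0.30 (edgeR adjusted p = 0.134). The block 3x call was lost, at 0.23 to 0.32 (edgeR adjusted p from 0.107 to 0.211), without block PBS replicate 2 or 4 or block 3x replicate 2 or 3.

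**Figure D2:**
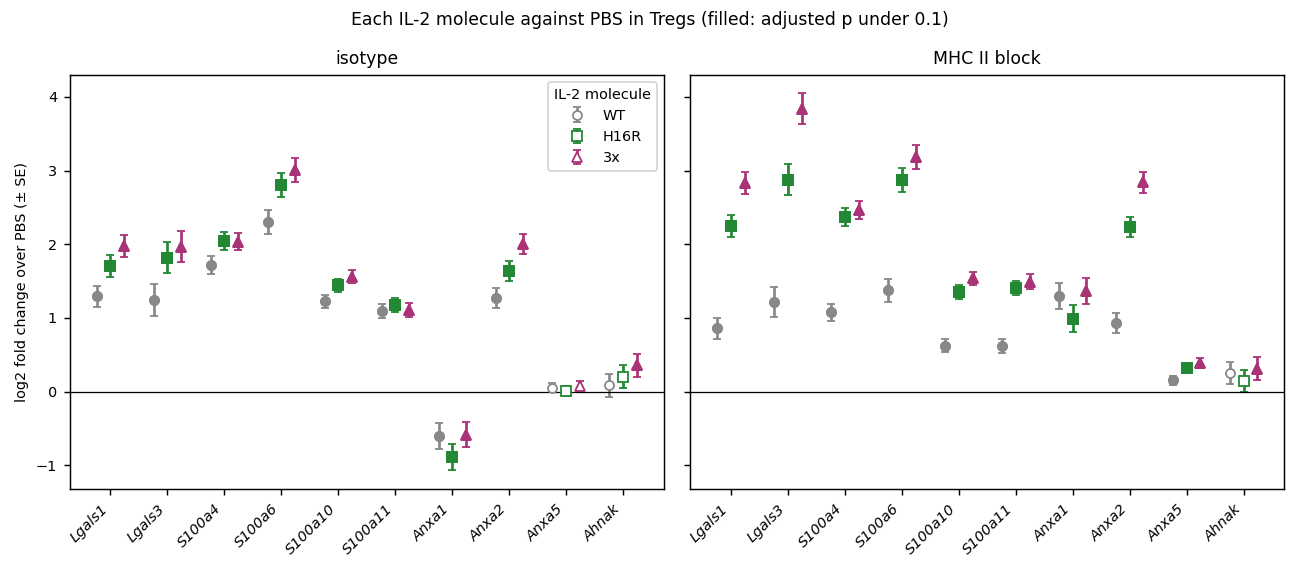
Log2 fold change over PBS (vertical axis, error bars 1 SE) of each member (horizontal axis) for WT IL-2 (grey circles), H16R (green squares) and 3x (purple triangles), with isotype on the left and MHC II block on the right, and symbols filled where the adjusted p was under 0.1. Anxa1 lies below 0 with isotype and above 0 with MHC II block, and Lgals3 after 3x with MHC II block is the highest point, at 3.83.

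The second question was what MHC II blockade did at a given treatment. Blocked Tregs had lower Anxa1 after PBS, lower S100a6, S100a10 and S100a11 after WT IL-2, and higher levels of most members after both muteins. After PBS, 3 of 10 members passed the threshold (2 higher, 1 lower), against 14.1% of genes. After WT IL-2, 5 passed (1 higher, 4 lower), against 33.6%. After H16R and after 3x, 8 passed each time, all higher, against 30.7% and 54.1% of genes. The member medians were 0.08, -0.25, 0.58 and 0.73 on the log2 scale for PBS, WT IL-2, H16R and 3x, beside a median between -0.01 and 0.01 over all genes.

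Lgals3 had the largest rise with blockade, 1.19 ± 0.19 after H16R and 2.00 ± 0.19 after 3x (edgeR adjusted p = 7.21e-05 and 3.26e-09), folds of 2.29 and 3.99, while after WT IL-2 the difference was 0.10 ± 0.19 (edgeR adjusted p = 0.736). Lgals1 was higher by 0.64 ± 0.14 after H16R and 0.95 ± 0.14 after 3x (edgeR adjusted p = 0.00242 and 5.64e-06). After WT IL-2 Lgals1 was lower, at a log2 difference of -0.33 ± 0.14 (edgeR adjusted p = 0.0902), a call lost in 6 fits that left out a single library, for example at -0.25 (edgeR adjusted p = 0.252) without isotype WT IL-2 replicate 1. Anxa2, S100a4 and S100a6 followed the same pattern after the muteins, with 0.67 and 0.91, 0.74 and 0.83 and 0.53 and 0.62 after H16R and 3x. After WT IL-2, S100a6 was lower with blockade, at a log2 difference of -0.48 ± 0.15 (edgeR adjusted p = 0.0186), while S100a4 and Anxa2 were at -0.23 ± 0.11 and -0.26 ± 0.13 (edgeR adjusted p = 0.133 and 0.143). S100a10 and S100a11 were also lower with blockade after WT IL-2, at -0.51 ± 0.09 and -0.45 ± 0.09 (edgeR adjusted p = 8.78e-05 and 0.000676). The 4 blocked WT IL-2 libraries of S100a4, S100a6, S100a10 and S100a11 all lay below the 4 isotype WT IL-2 libraries. S100a10 did not pass after either mutein, at -0.01 ± 0.09 and 0.06 ± 0.09 (edgeR adjusted p = 0.973 and 0.577). S100a11 was at 0.25 ± 0.09 and 0.41 ± 0.09 after H16R and 3x (edgeR adjusted p = 0.0498 and 0.000779), the first lost, at 0.19 to 0.24, without isotype H16R replicate 4 or block H16R replicate 3 or 4.

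Anxa1 changed with blockade at every treatment. It was lower after PBS, -0.95 ± 0.18, and higher after WT IL-2, H16R and 3x, 0.96 ± 0.17, 0.93 ± 0.17 and 0.99 ± 0.17 (edgeR adjusted p = 0.00102, 0.000134, 0.000536 and 3.58e-05), with no overlap between the arms in any of the 4. Without the 2 libraries that stood apart, the value after WT IL-2 was 0.68 (edgeR adjusted p = 0.000831). Anxa5 was higher by 0.20 ± 0.07 and 0.20 ± 0.07 after the muteins (edgeR adjusted p = 0.0332 and 0.0124), and Ahnak was at -0.29 ± 0.15 and -0.28 ± 0.15 (edgeR adjusted p = 0.182 and 0.14), with its groups overlapping. After PBS, S100a4 was higher by 0.41 ± 0.12 and S100a6 by 0.45 ± 0.16 (edgeR adjusted p = 0.0271 and 0.0751). Both calls rested on single mice: S100a4 was at 0.34 (edgeR adjusted p = 0.113) without block PBS replicate 2, and S100a6 at 0.28 (edgeR adjusted p = 0.222) without isotype PBS replicate 4.

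The difference of the blockade effect between each mutein and WT IL-2 was tested as an interaction. For H16R, 7 of 10 members passed the threshold, all higher, against 23.5% of genes, and for 3x 8 passed, all higher, against 43.8%. The members were Lgals1, Lgals3, the 4 S100 genes and Anxa2 for both, and Anxa5 for 3x. The largest was Lgals3, whose blockade effect was 1.09 ± 0.27 larger for H16R and 1.89 ± 0.27 larger for 3x on the log2 scale (edgeR adjusted p = 0.00866 and 5.25e-06). For Lgals1 the differences were 0.97 ± 0.20 and 1.28 ± 0.20 (edgeR adjusted p = 0.00231 and 2.3e-05), and for S100a10, which blockade did not move after the muteins, 0.51 ± 0.12 and 0.58 ± 0.12 (edgeR adjusted p = 0.00841 and 0.00079). The Anxa1 effects, all near 1 log2 unit, differed between treatments by -0.03 ± 0.24 and 0.03 ± 0.24 (edgeR adjusted p = 0.956 and 0.926).

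**Figure D3:**
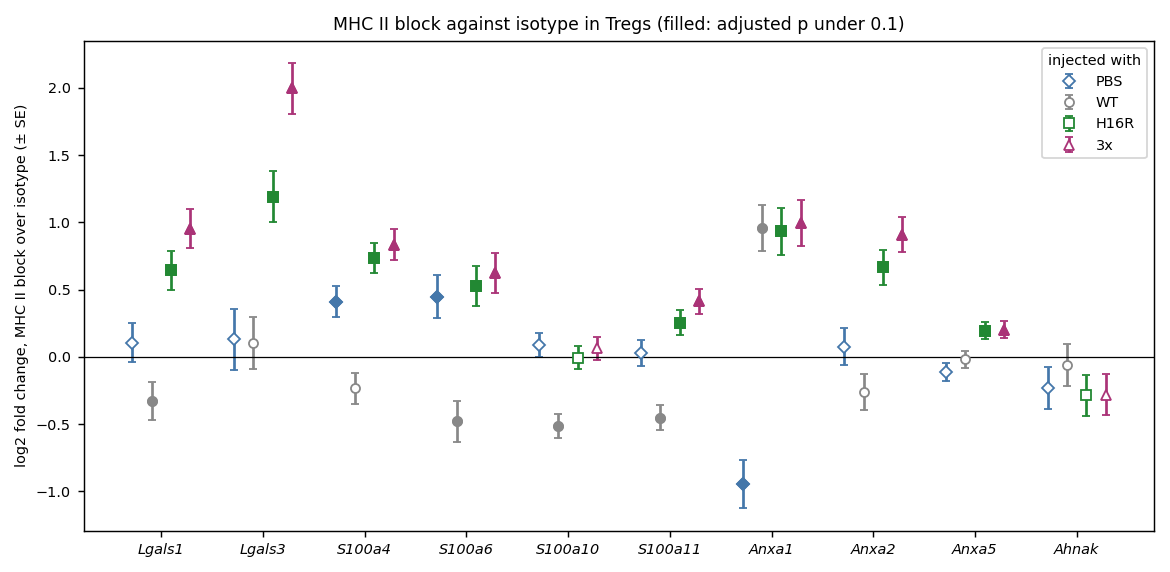
Log2 fold change of MHC II block over isotype in Tregs (vertical axis, error bars 1 SE) of each member (horizontal axis) after PBS (blue diamonds), WT IL-2 (grey circles), H16R (green squares) and 3x (purple triangles), with symbols filled where the adjusted p was under 0.1. After WT IL-2 the S100 genes lie below 0, after the muteins Lgals1, Lgals3, S100a4, S100a6 and Anxa2 lie above 0, and Anxa1 is below 0 only after PBS.

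The third question was how the muteins compared with WT IL-2 in Tregs. Lgals1, Lgals3, S100a4, S100a6, S100a10 and Anxa2 were higher after either mutein in both arms, by less with isotype than with MHC II block. With isotype, 6 members passed for H16R against WT IL-2 and 6 for 3x against WT IL-2, all higher, against 18.6% and 34.7% of genes, and 1, Anxa2, passed for 3x against H16R, against 11.5%. With MHC II block, 8 passed for each mutein against WT IL-2, all higher, against 57.5% and 68.7% of genes, and 3 for 3x against H16R, against 25.2%. With isotype the log2 differences between 3x and WT IL-2 were 0.74 ± 0.13 for Anxa2, 0.72 ± 0.19 for Lgals3, 0.70 ± 0.15 for S100a6 and 0.69 ± 0.14 for Lgals1. The H16R calls were less firm. Lgals1 was at 0.42 ± 0.14 and S100a6 at 0.49 ± 0.15 (edgeR adjusted p = 0.0535 and 0.0306), and without isotype H16R replicate 3 none of the 6 passed, Lgals1 then being at 0.30 (edgeR adjusted p = 0.272). Without isotype WT IL-2 replicate 4, 1 of the pair with the same mouse number, Lgals1, Lgals3, S100a4, S100a10 and Anxa2 also missed the threshold for H16R, at 0.40, 0.49, 0.30, 0.21 and 0.33. The S100a4 call for 3x, 0.32 ± 0.11 (edgeR adjusted p = 0.0392), was lost, at 0.27, without isotype WT IL-2 replicate 2 or isotype 3x replicate 1, and the Anxa2 call for 3x against H16R, 0.36 ± 0.13 (edgeR adjusted p = 0.0862), in 6 fits, at 0.25 to 0.37.

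With MHC II block, Lgals3 was higher than after WT IL-2 by 1.66 ± 0.19 for H16R and 2.62 ± 0.20 for 3x, folds of 3.16 and 6.13 (edgeR adjusted p = 1.68e-07 and 1.92e-11). Lgals1 was higher by 1.39 ± 0.14 and 1.97 ± 0.15, Anxa2 by 1.303 ± 0.13 and 1.91 ± 0.13 and S100a6 by 1.498 ± 0.15 and 1.81 ± 0.15 in the same comparisons. S100a4, S100a10 and S100a11 were higher by 1.29 and 1.38, 0.73 and 0.91 and 0.78 and 0.87, and Anxa5 by 0.16 and 0.24. Anxa1 and Ahnak did not pass for either mutein, Anxa1 at -0.31 ± 0.17 and 0.06 ± 0.17 (edgeR adjusted p = 0.131 and 0.774), though without the 2 Treg libraries that stood apart 3x exceeded WT IL-2 for Anxa1 by 0.34 (edgeR adjusted p = 0.0361) and H16R by 0.37 (edgeR adjusted p = 0.0403). Between the muteins, 3x exceeded H16R for Lgals1 by 0.58 ± 0.14, Lgals3 by 0.96 ± 0.18 and Anxa2 by 0.60 ± 0.13 (edgeR adjusted p = 0.00481, 0.00061 and 0.00167). The S100 genes did not pass there, S100a4 at 0.09 ± 0.11 and S100a6 at 0.31 ± 0.15 (edgeR adjusted p = 0.644 and 0.159).

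The fourth comparison set Tregs against Tcons of the same 16 mice, with mouse as a block. Over all treatments Lgals1, Lgals3, the 4 S100 genes, Anxa5 and Ahnak were higher in Tregs and Anxa1 was lower, 9 of 10 members past the threshold, against 75.9% of the 12844 genes tested. S100a6 and S100a4 had the largest differences, 1.24 ± 0.22 and 1.20 ± 0.17 (edgeR adjusted p = 7.08e-05 and 5.63e-06). Anxa1 was lower, at a log2 difference of -0.89 ± 0.09 (edgeR adjusted p = 9.69e-08), and Tcon libraries held more myeloid RNA, whose part in it was not tested. Anxa2 was at 0.30 ± 0.20 (edgeR adjusted p = 0.189).

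That average hid a change with treatment. After PBS, 6 of 10 members differed (3 higher, 3 lower in Tregs), against 50.4% of genes, and after WT IL-2 6 did (5 higher, 1 lower), against 63.5%. After H16R and after 3x all 10 differed, 9 higher and Anxa1 lower, against 70.4% and 71.2% of genes. Anxa2 was lower in Tregs than in Tcons after PBS, -0.75 ± 0.09 (edgeR adjusted p = 6.1e-06), and higher after H16R and 3x, 0.69 ± 0.09 and 1.40 ± 0.09 (edgeR adjusted p = 5.13e-06 and 2.76e-09). S100a11 crossed in the same way, from -0.28 ± 0.10 after PBS to 0.71 ± 0.10 and 0.86 ± 0.10 (edgeR adjusted p = 0.0375, 1.87e-05 and 2.46e-06). Lgals3 and S100a6 were at 0.02 ± 0.15 and -0.02 ± 0.10 after PBS (edgeR adjusted p = 0.925 and 0.881) and at 1.83 ± 0.14 and 2.37 ± 0.10 after 3x. Their PBS values averaged arms that went opposite ways. With isotype Lgals3 was at 14.6 and 13.7 CPM in Tregs beside 17.1 and 18.3 CPM in Tcons. With MHC II block it was at 14.2 and 15.1 CPM in Tregs beside 11.8 and 11.6 CPM in Tcons. S100a6 was likewise lower in Tregs with isotype and higher with MHC II block. Lgals1 went from 0.21 ± 0.09 after PBS to 0.51 ± 0.09, 1.12 ± 0.09 and 1.99 ± 0.09 after WT IL-2, H16R and 3x.

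The change of the Treg to Tcon difference from PBS was itself tested. It passed the threshold for 5, 10 and 10 of the 10 members with WT IL-2, H16R and 3x, against 12.2%, 40.6% and 46.5% of genes. For S100a6 it was 0.89 ± 0.14, 1.71 ± 0.14 and 2.39 ± 0.14 and for Anxa2 0.59 ± 0.13, 1.44 ± 0.13 and 2.14 ± 0.13 (edgeR adjusted p = 0.00631, 9.36e-06 and 8.89e-08, and 0.0224, 1.35e-05 and 8.89e-08). Lgals3 was at -0.06 ± 0.21, 0.81 ± 0.21 and 1.81 ± 0.21 and Anxa1 at -0.82 ± 0.14, -0.80 ± 0.14 and -0.31 ± 0.14 (edgeR adjusted p = 0.886, 0.01 and 2.68e-05, and 0.00742, 0.000933 and 0.0863). The Lgals3 value for WT IL-2 averaged arms that went opposite ways. After WT IL-2 with isotype Lgals3 was at 31.4 and 26.5 CPM in Tregs beside 20.8 and 30.0 CPM in Tcons. With MHC II block it was at 45.6 and 26.7 CPM in Tregs beside 51.4 and 41.45 CPM in Tcons. This change was not tested in each arm apart. The S100a10 and S100a11 calls for WT IL-2 and the Anxa1 and Anxa5 calls for 3x were each lost in at least 1 fit without a single mouse, S100a10 being at 0.30 (edgeR adjusted p = 0.156) without isotype WT IL-2 replicate 1.

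**Figure D4:**
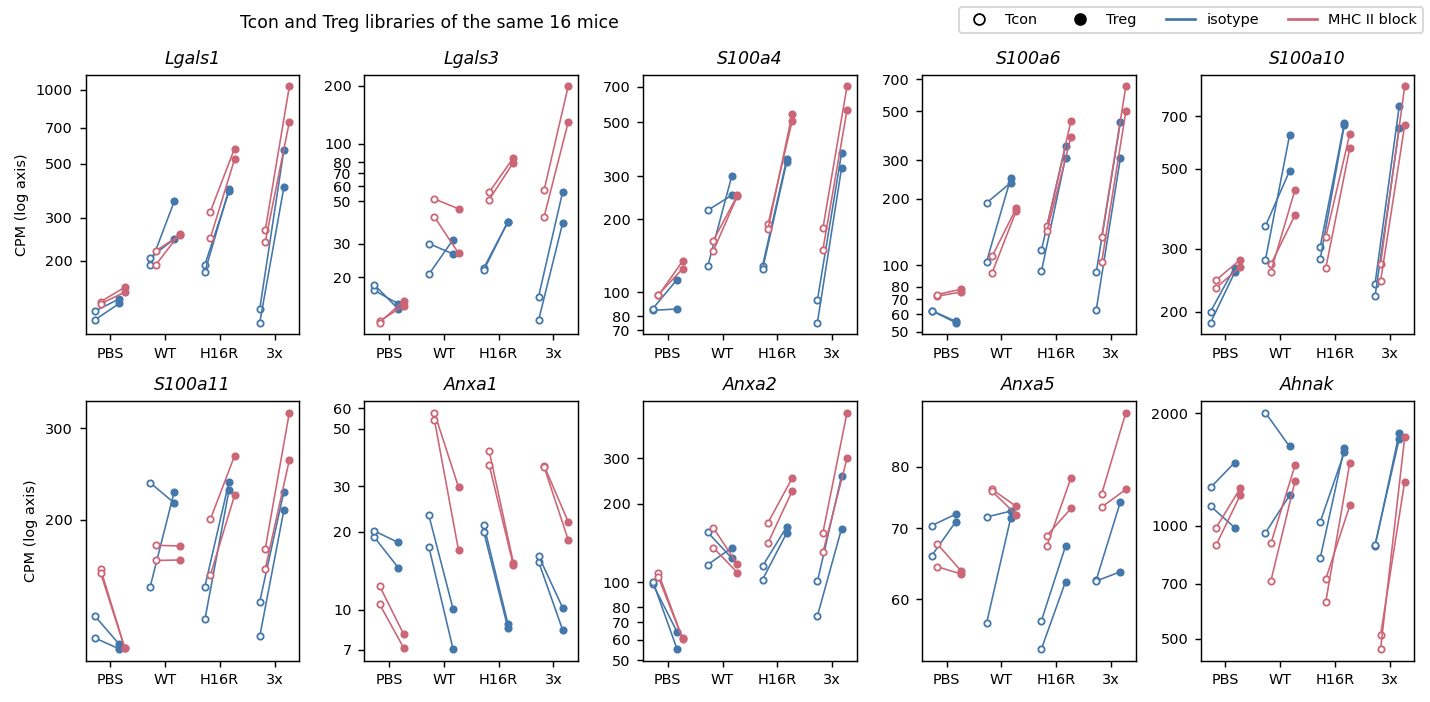
CPM on a log axis (vertical) of each member in the Tcon library (open symbols) and the Treg library (filled symbols) of the same 16 mice, joined by a line for each mouse, by treatment (horizontal axis), isotype in blue and MHC II block in red. Lines of Anxa2 fall from Tcon to Treg after PBS and rise after H16R and 3x, and lines of Anxa1 fall in every mouse.

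Tcons were also compared alone, and with only 2 mice a group the arms were first pooled. Against PBS, 8 of 10 members passed after WT IL-2 (all higher), 5 after H16R (all higher) and 1, Ahnak, after 3x (lower), against 27.2%, 31.1% and 9.88% of the 12526 genes tested. Lgals1 rose by 0.69 ± 0.16 and 0.84 ± 0.16 after WT IL-2 and H16R (edgeR adjusted p = 0.0149 and 0.00417), S100a6 by 0.92 ± 0.23 and 0.88 ± 0.23 and S100a4 by 0.88 ± 0.20 and 0.75 ± 0.20. After 3x the values of Lgals1, S100a6 and S100a4 were 0.46 ± 0.16, 0.52 ± 0.23 and 0.39 ± 0.20 (edgeR adjusted p = 0.114, 0.208 and 0.249). Lgals3 was higher by 1.11 ± 0.36 and 1.10 ± 0.36 (edgeR adjusted p = 0.0487 and 0.0439) and Anxa1 after WT IL-2 by 1.06 ± 0.34 (edgeR adjusted p = 0.0488). Without the 2 Tcon libraries highest in myeloid markers, which are both of the block WT IL-2 group, these were no longer called for WT IL-2, Lgals3 at 1.09 (edgeR adjusted p = 0.18) and Anxa1 at 0.54 (edgeR adjusted p = 0.409). Ahnak after 3x was at -0.69 ± 0.19 (edgeR adjusted p = 0.0545). MHC II block against isotype over the 4 treatments moved 7 of 10 members (6 higher, Ahnak lower), against 28.9% of genes, among them Lgals3 by 0.85 ± 0.26 and Anxa1 by 0.71 ± 0.24 (edgeR adjusted p = 0.0398 and 0.058). Without the same 2 libraries Lgals3 was at 0.84 (edgeR adjusted p = 0.131) and Anxa1 at 0.44 (edgeR adjusted p = 0.292). Isotype WT IL-2 Tcon replicate 2, the library with the Treg marker sum of 758 CPM, held 192 CPM of S100a6 and 217 CPM of S100a4, both above replicate 1. Without it the WT IL-2 values were 0.56 for S100a6, 0.60 for S100a4 and 0.59 for Lgals1, all still past the threshold, and S100a11 went from 0.39 to 0.18 (edgeR adjusted p = 0.111). Over the pooled Tcon comparisons of treatment and blockade, that fit lost 2 member calls and gained 8. Other marker sums of isotype Tcons were also higher after WT IL-2 and H16R than after PBS. For PBS, WT IL-2, H16R and 3x the medians were 243, 542, 453 and 334 CPM for the 3 Treg markers, 1079, 2043, 1760.3 and 411 CPM for plasma cell markers and 5.01, 94.6, 37.2 and 2.55 CPM for erythroid markers, and their part in these values was not tested. Single libraries also decided several other Tcon calls. After WT IL-2, Lgals3 at 0.84 to 1.04 and Anxa1 at 0.75 to 0.91 missed the threshold without block PBS replicate 1 or 2 or block WT IL-2 replicate 1, and after H16R Lgals3 at 0.83 without either block PBS library. Ahnak after 3x missed it, at -0.67 to -0.61, without any 1 of the 4 libraries of block PBS and block 3x, and the blockade calls of Anxa1 and S100a4 were each lost in 7 of these fits, at 0.60 to 0.68 and 0.30 to 0.37.

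The arms differed, so each was also fitted alone, a choice made after the data were seen. Tcon Lgals3 with isotype was at 17.1 and 18.3 CPM after PBS, 20.8 and 30.0 after WT IL-2, 22.4 and 21.8 after H16R and 15.9 and 11.9 CPM after 3x. With MHC II block it was at 11.8 and 11.6, 51.4 and 41.5, 55.7 and 51.0 and 57.0 and 41.4 CPM in the same order. All 6 treated block libraries lay above the other 10 Tcon libraries. Tcon Anxa1 was at 19.1 and 20.2, 23.1 and 17.5, 21.3 and 20.0 and 15.3 and 16.1 CPM with isotype. With MHC II block it was at 12.4 and 10.5, 57.8 and 54.3, 41.0 and 36.2 and 36.1 and 35.7 CPM. Blocked WT IL-2 Tcons had the highest Anxa1 of all 16 groups of both cell types, followed by blocked H16R and 3x Tcons.

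Within a treatment, blockade moved 1, 3, 3 and 6 of 10 members in Tcons after PBS, WT IL-2, H16R and 3x, against 10.2%, 10.8%, 4.19% and 39.1% of genes. After PBS it was Anxa1, lower with blockade, at a log2 difference of -0.77 ± 0.12 (edgeR adjusted p = 0.00177). The blockade effect differed from that after PBS for 3, 2 and 3 members after WT IL-2, H16R and 3x, against 12.8%, 8.45% and 18.2% of genes, with Lgals3 at 1.44 ± 0.27, 1.85 ± 0.27 and 2.35 ± 0.27 and Anxa1 at 2.22 ± 0.17, 1.67 ± 0.17 and 1.89 ± 0.17 (edgeR adjusted p = 0.004, 0.000737 and 0.000143, and 1.09e-05, 6.57e-05 and 2.92e-05).

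In the block arm of Tcons, Lgals3 rose by 1.98 ± 0.19, 2.17 ± 0.19 and 2.02 ± 0.19 and Anxa1 by 2.29 ± 0.13, 1.74 ± 0.12 and 1.60 ± 0.12 after WT IL-2, H16R and 3x (edgeR adjusted p = 2.45e-05, 4.04e-05 and 5.31e-05, and 1.46e-06, 1.48e-05 and 1.62e-05). In the isotype arm the values were 0.55 ± 0.19, 0.31 ± 0.19 and -0.32 ± 0.19 and 0.07 ± 0.12, 0.07 ± 0.12 and -0.29 ± 0.12 (edgeR adjusted p = 0.0942, 0.263 and 0.341, and 0.765, 0.711 and 0.176). With isotype 7, 5 and 0 members passed after WT IL-2, H16R and 3x, against 15.0%, 26.1% and 14.5% of genes, and with MHC II block 5, 7 and 6 did, against 34.8%, 27.0% and 24.4%. With isotype the calls were 7 higher after WT IL-2 and 4 higher and 1 lower after H16R. The WT IL-2 count includes the Tcon library with the Treg marker sum of 758 CPM as 1 of its 2 treated libraries, and that fit was not repeated without it. With isotype after 3x, 14.5% of genes passed in the same edgeR fit, and Lgals1, the member that rose 3.94-fold in Tregs of that group, was at 0.02 ± 0.11 in Tcons. Where none passed, after 3x with isotype, 2 members had an unadjusted p under 0.05, Anxa1 and S100a10, S100a10 at 0.28 ± 0.11 (edgeR adjusted p = 0.136). The myeloid marker sums of block Tcons were also higher after each molecule than after PBS. They ranged from 101 to 111 CPM after PBS, 856 to 1009.9 after WT IL-2, 357 to 389 after H16R and 348 to 361 CPM after 3x. In isotype Tcons the ranges were 211 to 226, 166 to 307, 170.0 to 180.3 and 110.5 to 137 CPM. In block Tcons after WT IL-2, H16R and 3x, Anxa1 averaged 56.0, 38.6 and 35.9 CPM. Lgals3 averaged 46.4, 53.4 and 49.2 CPM there, so it was not highest where the myeloid sums were. Other marker sums moved there too. In block Tcons after PBS, WT IL-2, H16R and 3x, the medians were 35.7, 193, 139.9 and 156 CPM for dendritic cell markers, 60.3, 148, 123 and 108 CPM for NK cell markers and 934, 2455, 1713 and 1042 CPM for plasma cell markers. B cell, CD8 T cell and erythroid marker sums were also highest after WT IL-2 in that arm, with medians of 257, 50.6 and 60.3 CPM. The part of these cell types in the Tcon values was not tested.

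**Figure D5:**
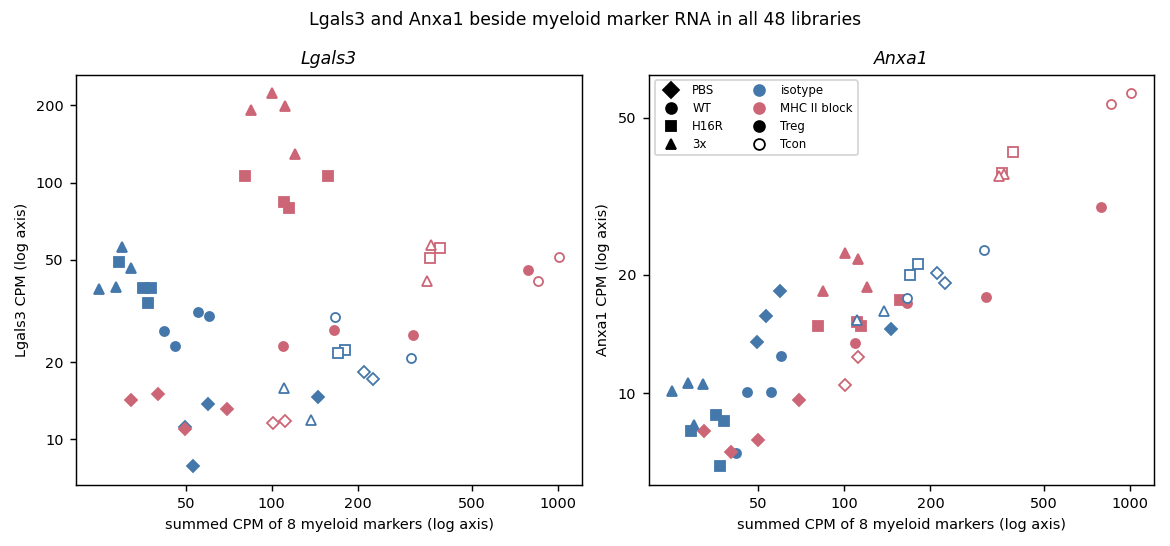
CPM of Lgals3 (left) and Anxa1 (right), on log axes, against the summed CPM of 8 myeloid markers (horizontal, log axis) in all 48 libraries, Tregs filled and Tcons open, isotype in blue and MHC II block in red, with a symbol for each treatment. Block 3x and H16R Tregs lie highest for Lgals3 at myeloid sums of 80.8 to 157 CPM, whereas the highest Anxa1 values are those of block WT IL-2 Tcons, which have the highest myeloid sums.

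Other genes of the same families, binding partners and glycan enzymes were taken from a fixed list of 45, of which 29 were tested in Tregs. Of the 17 other family members tested, 8, 10 and 9 were higher and 3, 4 and 5 lower after WT IL-2, H16R and 3x with isotype, and 11, 9 and 8 higher and 0, 2 and 3 lower with MHC II block. Over all genes 52.2%, 64.2% and 63.6% passed in either direction with isotype and 35.6%, 66.5% and 73.0% with MHC II block. Their median log2 fold changes were 0.16, 0.25 and 0.20 with isotype and 0.22, 0.53 and 0.29 with MHC II block, all nearer to 0 than those of the 10 members. Lgals7, another galectin, had the largest rise of the list in every comparison but WT IL-2 with MHC II block. It averaged 0.910 ± 0.150 CPM in isotype PBS Tregs (SD, n = 4) and 17.7 ± 4.87 CPM after H16R, and 2.28 ± 0.710 and 51.4 ± 12.2 CPM after PBS and 3x with MHC II block. Its log2 fold changes were 2.83, 4.32 and 3.25 with isotype and 0.69, 4.04 and 4.55 with MHC II block (edgeR adjusted p = 1.29e-08, 5.48e-13 and 3.13e-10, and 0.0428, 6.19e-14 and 2.34e-15). S100a13 rose by 0.85, 1.13 and 1.13 with isotype and 0.56, 1.35 and 1.46 with MHC II block. Anxa4 rose by 0.83, 0.79 and 0.69 with isotype and 0.76, 1.20 and 1.41 with MHC II block, and Anxa6 by 0.43, 0.58 and 0.76 with isotype and 0.35, 0.91 and 1.11 with MHC II block. Anxa11 rose by 0.35, 0.48 and 0.47 with isotype and 0.16, 0.54 and 0.63 with MHC II block. Anxa7 rose by 0.19, 0.15 and 0.12 with isotype and 0.22, 0.35 and 0.45 with MHC II block. The Anxa4, Anxa6, Anxa7 and Anxa11 values passed the test in all 6 comparisons. Lgals9, which makes galectin-9, averaged from 129 to 157 CPM over the 8 Treg groups, at log2 fold changes of -0.02, 0.16 and 0.20 with isotype and -0.09, 0.16 and 0.11 with MHC II block. Lgals8 was at 0.10, 0.25 and 0.20 with isotype and 0.18, 0.12 and 0.07 with MHC II block. Lgals3bp, whose product binds galectin-3, was at -0.02, -0.13 and -0.35 with isotype and 0.06, 0.11 and 0.09 with MHC II block. For Lgals4 the values were 0.16, 0.33 and 0.10 with isotype and 0.04, -0.17 and -0.34 with MHC II block, and for S100pbp 0.10, 0.09 and -0.01 with isotype and 0.10, -0.08 and -0.17 with MHC II block. Of these 5 genes, S100pbp and Lgals3bp passed in 1 comparison each, after 3x. S100a9, which is also one of the myeloid markers, went the other way with isotype, at -3.0, -6.36 and -6.73, from 7.40 ± 8.00 CPM after PBS, where 1 library held 19.2 CPM. With MHC II block S100a9 was at 4.87, 1.23 and -0.47 (edgeR adjusted p = 0.00303, 0.384 and 0.763), and it reached 98.3 CPM in the block WT IL-2 library with the high myeloid sum.

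Of the 7 partners and ligands tested, 5, 5 and 5 were higher and 1, 2 and 2 lower with isotype, and 4, 5 and 4 higher and 1, 1 and 0 lower with MHC II block, to be read against the same shares of all genes, 52.2%, 64.2% and 63.6% and 35.6%, 66.5% and 73.0%. Havcr2, the receptor Tim-3 that galectin-9 binds, rose by 2.03, 2.15 and 2.08 with isotype and by 1.59, 2.97 and 3.56 with MHC II block (edgeR adjusted p = 1.22e-09, 1.39e-10 and 3.28e-10, and 2.9e-07, 1.27e-13 and 1.51e-15), from 4.42 ± 1.43 CPM in isotype PBS Tregs to 54.4 ± 8.94 CPM after 3x with MHC II block. Spn, the gene of CD43, a galectin-1 counterreceptor, rose by 0.72, 0.94 and 0.95 with isotype and 0.25, 0.86 and 1.15 with MHC II block. Cd7, another counterreceptor, was at -0.27, -0.34 and -0.44 with isotype and 0.29, 0.15 and -0.14 with MHC II block (edgeR adjusted p = 0.0397, 0.00898 and 0.000956, and 0.041, 0.222 and 0.232). Ptprc, the gene of CD45, was at 0.22, 0.35 and 0.27 with isotype and 0.10, 0.24 and 0.21 with MHC II block. Myh9, the myosin heavy chain that S100a4 binds, was at 0.31, 0.49 and 0.38 with isotype and -0.09, 0.19 and 0.22 with MHC II block. Plgrkt, a plasminogen receptor, was at 0.16, 0.21 and 0.31 with isotype and 0.02, 0.14 and 0.06 with MHC II block. Cd44, a receptor for hyaluronan, was at -0.12, -0.28 and -0.20 with isotype and 0.26, -0.13 and -0.08 with MHC II block. The 5 glycan enzymes had 3, 4 and 4 higher with isotype, and 4, 4 and 4 higher and 0, 1 and 1 lower with MHC II block, beside 52.2%, 64.2% and 63.6% and 35.6%, 66.5% and 73.0% of all genes. Gcnt1, which builds the core 2 O-glycans that galectin-1 binds, rose by 1.16, 1.56 and 1.00 with isotype and 0.79, 2.36 and 3.10 with MHC II block (edgeR adjusted p = 1.18e-07, 2.18e-10 and 6.17e-07, and 7.64e-05, 3.4e-14 and 9.17e-17). Mgat5, which makes the branched N-glycans that galectin-3 prefers, was at 0.02, 0.01 and -0.12 with isotype and at -0.01, -0.33 and -0.51 with MHC II block, and only the last 2 passed (edgeR adjusted p = 0.000103 and 1.38e-07). Man2a1 rose by 0.40, 0.54 and 0.49 with isotype and 0.39, 0.50 and 0.67 with MHC II block. St6gal1 rose by 0.34, 0.50 and 0.19 with isotype and 0.16, 0.50 and 0.28 with MHC II block. B4galt1 was at 0.07, 0.17 and 0.22 with isotype and 0.15, 0.23 and 0.26 with MHC II block, and passed in all comparisons but WT IL-2 with isotype.

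Across the 32 Treg libraries, Lgals1, Lgals3, the 4 S100 genes and Anxa2 varied together, with Pearson's r of log2 CPM from 0.85 to 1.0 over their 21 pairs. This set leaves out Anxa1, Anxa5 and Ahnak, which did not share the rise of the others in these same libraries. Their r with the set was 0.07 to 0.43, 0.51 to 0.76 and 0.09 to 0.27. The libraries share treatments and depth, so these values describe the set and carry no test. Among 9507 genes with a mean of at least 5 CPM, the gene most like Lgals1 was Anxa2 (r = 0.995), followed by Pycard, which makes the inflammasome adaptor ASC. The genes most like Lgals3 were Dhrs1 and Rom1, those most like S100a6 were Rhoc and Paqr4, and those most like S100a4 the same 2. Those most like S100a10 were Ass1 and Tmprss13, and those most like S100a11 were Ebp and Rhoc. Anxa1 was most like Klrc1, an NK cell receptor gene (r = 0.85), with Ncr1, an NK marker, and Itgax, a dendritic cell marker, also in its first 5. Anxa5 was most like Arhgdia and the proteasome gene Psmb2, and Ahnak most like the kinase gene Wnk1 (r = 0.84).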

How the data were processed

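RNA of 32 Treg and 16 Tcon libraries was sequenced by the authors with a stranded mRNA kit. The expected counts that the authors deposited, 53345 genes in 48 libraries, came from OSA alignment to mouse genome B38 in Omicsoft Array Suite and the Omicsoft version of RSEM, which shares reads that fit several genes by estimated abundance, and they were not normalized. Of the member counts, 89.2% were exactly whole as deposited. The deposited FPKM values came from the same estimates by the authors, divided by transcript length and library reads. The authors' tables of their own comparisons (log2 fold changes, p-values and Wald score by DESeq2 1.30.1) were deposited too and were not used here. The group of each library was taken from its label.

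Expected counts were rounded and fitted in R 4.3.3 with edgeR 4.0.16, by TMM scaling and the quasi-likelihood test, on protein-coding genes of GENCODE vM21 (GRCm38) with CPM above 0.5 in at least 4 of the fitted libraries and with no empty cell. P-values were adjusted by the Benjamini-Hochberg method over all genes of a contrast, with 0.1 as the threshold. The SE is the log2 fold change divided by the square root of its F. Treg contrasts used 1 model of the 8 groups. Treg to Tcon contrasts had mouse as a block, since the labels give both libraries of a mouse the same group code and number, and their deviations from group means correlated at 0.15 to 0.55 (median 0.26) in all 16 mice. Tcon contrasts had terms for antibody and treatment. CPM is the expected count over the library total, from 18.28 to 51.95 M, and covers counting error of those depths only. No pair of libraries of a group was a duplicate, the lowest chi-square per gene being 4.4. The fit was tested on simulated data. Alternatives were total counts without TMM, RLE size factors, no filter, all biotypes, empty cells as 0, DESeq2 1.42.0, limma 3.58.1 on log2(FPKM + 1) and on log2(FPKM + 0.1), a replicate block, thinned libraries, fits of the compared groups alone, a minimum absolute log2 fold change of 1, and leaving out libraries. All members are named, and a related gene where its mean was at least 5 CPM in Tregs and it passed in at least 1 contrast with PBS; others are in the counts. The genes most like a member were the 5 with the highest Pearson's r of log2 CPM with a prior count of 2. Promoter sequences are from RefSeq. The members and lists were chosen with earlier results of these data known. One of the naive T cell markers is not reported here.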

Additional observations from a re-analysis of the deposited data

Results flagged for a closer look

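Of 80 groups of 4 Treg libraries (10 genes in 8 groups), 6 held a library far from the other 3 by Dixon's gap ratio, where chance alone gives about 4 at 1 in 20. In 4 of them it was isotype PBS replicate 4, the lowest of its group for Lgals1 (95.9 CPM), S100a6 (28.8 CPM), S100a10 (216 CPM) and S100a11 (81.7 CPM). The others were Lgals3 in block WT IL-2 replicate 1 (highest, 45.6 CPM), the library with the highest myeloid sum of all Tregs, and Anxa1 in block H16R replicate 3 (highest, 17.3 CPM).

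The blockade effect in Tregs differed between H16R and WT IL-2 by tested log2 differences of 0.97 for Lgals1, 1.09 for Lgals3, 0.97 for S100a4, 1.00 for S100a6, 0.51 for S100a10, 0.71 for S100a11 and 0.93 for Anxa2. Between 3x and WT IL-2 it differed by 1.28 for Lgals1, 1.89 for Lgals3, 1.07 for S100a4, 1.10 for S100a6, 0.58 for S100a10, 0.86 for S100a11, 1.17 for Anxa2 and 0.22 for Anxa5.

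The Treg to Tcon difference changed from PBS after WT IL-2 by 0.89 for S100a6, 0.45 for S100a10, 0.47 for S100a11, 0.59 for Anxa2 and -0.82 for Anxa1. After H16R it changed by 0.91 for Lgals1, 0.81 for Lgals3, 1.25 for S100a4, 1.71 for S100a6, 0.89 for S100a10, 0.99 for S100a11, 1.44 for Anxa2, 0.26 for Anxa5, 0.75 for Ahnak and -0.80 for Anxa1. After 3x it changed by 1.77 for Lgals1, 1.81 for Lgals3, 1.74 for S100a4, 2.39 for S100a6, 1.32 for S100a10, 1.14 for S100a11, 2.14 for Anxa2, 0.20 for Anxa5, 1.15 for Ahnak and -0.31 for Anxa1.

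In Tcons, with 2 mice a group and in a fit chosen after the data were seen, the blockade effect differed from that after PBS for Lgals3 and Anxa1 with every molecule. For WT IL-2 the differences were 1.44 for Lgals3, 2.22 for Anxa1 and -0.57 for S100a10, against 12.8% of genes past the threshold. For H16R they were 1.85 for Lgals3 and 1.67 for Anxa1, against 8.45% of genes. For 3x they were 0.83 for Lgals1, 2.35 for Lgals3 and 1.89 for Anxa1, against 18.2% of genes. The myeloid marker sums of blocked Tcons differed between the same groups, and their part in these values was not tested.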

How the results depend on the processing

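No log2 fold change that passed the threshold changed sign under any alternative. Of 260 member results, the same side of the threshold was kept by 252 with total counts, 257 with RLE, 255 without the filter, 252 with all biotypes, 259 with empty cells as 0, 253 with DESeq2, 249 and 250 with limma on log2(FPKM + 1) and log2(FPKM + 0.1), 174 of 180 with thinned libraries and 165 of 180 with the compared groups fitted alone (5 calls lost, 10 gained). A minimum absolute log2 fold change of 1 left, of the calls among members, 2 of 24 for blockade in Tregs, 0 of 13 for muteins against WT IL-2 and each other with isotype and 10 of 19 with MHC II block, 7 of 15 for the difference of the blockade effect, 3 of 9 for Tregs against Tcons, 11 of 25 for its change from PBS, 3 of 14 for IL-2 in Tcons and 0 of 7 for blockade in Tcons. By construction this drops smaller changes.

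With 1 library or mouse left out, the calls were 24 to 27 (25 with all) for IL-2 with isotype, 26 to 28 (28) with MHC II block, 22 to 26 (24) for blockade, 7 to 13 (13) and 18 to 21 (19) for muteins against WT IL-2 and each other in the arms, 14 to 16 (15) for the difference of the blockade effect, 9 to 9 (9) for Tregs against Tcons, 21 to 27 (25) for its change from PBS, 9 to 19 (14) for IL-2 in Tcons and 5 to 8 (7) for blockade in Tcons. The 7 came without isotype WT IL-2 replicate 2 or isotype H16R replicate 3, and the 9 of IL-2 in Tcons without block PBS replicate 1 or 2.

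Replicate numbers did not pair the Treg groups: same-numbered libraries deviated together with a median r of 0.02 (from -0.48 to 0.66), and 11 of 32 libraries correlated best with their own number. With the replicate block the calls were 25, 28, 23, 13, 19, 16, 14 and 7 for the results without mouse as a block. Lgals1 after WT IL-2 with blockade (-0.29, edgeR adjusted p = 0.133) was lost and the Anxa5 interaction for H16R (edgeR adjusted p = 0.0924) was gained. Without mouse as a replicate block, 10 of 10 members differed between Tregs and Tcons, Anxa2 at 0.30 (edgeR adjusted p = 0.000648). That fit also gave each group of a cell type, antibody and treatment its own term. It therefore cannot show what leaving out mouse does by itself. Leaving out the libraries richest in B cell or myeloid markers, chosen after the data were seen, gave 24, 27, 24, 13, 21 and 16 calls for the 6 Treg results, 12 and 5 for the 2 Tcon results, and 9 and 25 for the paired ones.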

Other observations

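Markers of naive and effector T cell states, fixed as lists of 5 and 4 genes, were also measured in Tregs. Klrg1, a receptor of terminally differentiated cells, rose after every molecule by log2 fold changes of 1.77, 2.04 and 2.22 with isotype and 1.52, 1.69 and 1.85 with MHC II block (edgeR adjusted p = 1.04e-08, 2.89e-10 and 8.53e-11, and 6.62e-07, 8.41e-09 and 7.56e-10). Icos, a costimulatory receptor, rose by 1.17, 1.04 and 0.92 with isotype and 0.44, 1.22 and 1.31 with MHC II block, and Prdm1, which makes the effector regulator Blimp-1, by 1.14, 1.03 and 0.75 and 0.63, 1.24 and 1.48 in the same order. Cd44, the fourth effector marker, was at -0.12, -0.28 and -0.20 with isotype and 0.26, -0.13 and -0.08 with MHC II block (edgeR adjusted p = 0.13, 0.000402 and 0.00889, and 0.00298, 0.0697 and 0.254). The summed medians of Cd44, Klrg1, Icos and Prdm1 went from 474 CPM after PBS to 837, 787 and 768 CPM with isotype and from 422 to 592, 724 and 812 CPM with MHC II block. Of 4 naive markers, Ccr7 was lower than after PBS in all 6 comparisons, at -0.74, -0.90 and -0.51 with isotype and -0.62, -0.88 and -1.43 with MHC II block, and so was Tcf7, at -0.30, -0.19 and -0.33 and -0.36, -0.65 and -0.97. Klf2 was at -0.14, -0.15 and -0.25 and -0.18, -0.34 and -0.72, and Lef1 at -0.09, 0.17 and 0.21 and -0.19, -0.20 and -0.41, so Lef1 was higher after the muteins with isotype and lower with MHC II block. Their part in the member values was not tested.

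Blockade moved these genes in different ways. Klrg1 was lower with blockade after WT IL-2, H16R and 3x by log2 differences of -0.67, -0.78 and -0.80 (edgeR adjusted p = 0.00465, 0.00243 and 0.000478), the opposite of Lgals1, Lgals3 and Anxa2 after the muteins. Prdm1 was lower after WT IL-2 and higher after the muteins, at -0.32, 0.40 and 0.93 (edgeR adjusted p = 0.00572, 0.00159 and 2.08e-09). Icos was at -0.80, 0.10 and 0.32 and Cd44 at 0.01, -0.21 and -0.24 (edgeR adjusted p = 7.42e-06, 0.522 and 0.0199 for Icos and 0.904, 0.0168 and 0.0023 for Cd44). Of the 4 naive markers given here, Ccr7, the lymph node homing receptor, fell most with blockade, at log2 differences of -0.53, -0.63 and -1.56 (edgeR adjusted p = 0.00258, 0.00113 and 3.17e-10). Klf2 was at -0.23, -0.38 and -0.65, Lef1 at 0.02, -0.26 and -0.51 and Tcf7 at 0.15, -0.24 and -0.42 (edgeR adjusted p = 0.0824, 0.00828 and 6.05e-06 for Klf2, 0.865, 0.00994 and 1.35e-06 for Lef1 and 0.218, 0.0392 and 0.000216 for Tcf7), so Lef1 and Tcf7 did not pass after WT IL-2.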
